A study of Homo sapiens with 12 samples.

Results

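The chemokine and migration receptors described here are 8 genes, CCR6, CCR7, CCR10, CXCR4, CXCR5, GPR183, S1PR1 and S1PR2, whose rows were taken by symbol from a table of 26210 genes. All 8 symbols were found. Of these, 6 reached an FPKM (fragments per kilobase of transcript, scaled to the mapped fragments of the library, a level per length) of at least 1 in at least 2 of the 12 libraries and were tested, and the other 2, CCR6 and CCR10, did not. Passing that minimum says nothing about a difference between the lines.

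The RNA-Seq libraries came from cell lines, with 2 libraries for each of 6 conditions. KM-H2, L1236 and L428 are lines of Hodgkin/Reed-Sternberg (HRS) cells, the malignant cells of classical Hodgkin lymphoma (cHL). Namalwa, a Burkitt's lymphoma line, and Reh, a B-cell precursor leukaemia line, served as the B-cell controls. Reh was also treated with 2 ng/ml phorbol 12-myristate 13-acetate (PMA), an activator of protein kinase C. The treatment time of these libraries was not given in the sources used here. Nothing says that the duplicate libraries came from separate cultures, so p-values measure only the spread between duplicates, which may be technical.

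Chemokine receptors are G-protein coupled receptors that steer leukocytes along gradients of small secreted proteins. CXCR4 holds cells in bone marrow, CCR7 guides cells into lymph nodes and CXCR5 into B-cell follicles, while GPR183 senses oxysterols and positions B-cells at the edge of the follicle. S1PR1 responds to sphingosine-1-phosphate and promotes exit from lymphoid tissue, whereas S1PR2 restrains migration and keeps germinal centre B-cells confined.

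Some libraries stood apart irrespective of the line. Of 253 short nucleolar RNA genes named SNORD, between 29 and 54 were listed above 0 in 5 libraries, against 6 to 8 in the other 7. The 5 libraries that list many SNORD genes are library 1 of KM-H2, of L1236 and of L428 and both libraries of PMA-treated Reh (the numbers 0 and 1 are only names). SNORD95 alone was at 16925 to 132676 FPKM in these 5 libraries and was listed at 0 in the other 7. For PMA-treated against untreated Reh, this split and the treatment cannot be told apart from those 4 libraries. The HRS lines hold 1 library of each kind, and over 14679 genes the SD of the log2 difference between duplicates was 0.850 in KM-H2, 0.871 in L1236 and 0.949 in L428, against 0.508 in Namalwa, 0.393 in Reh and 0.575 in PMA-treated Reh. The receptors were therefore also fitted with the split as a term, with the 7 libraries that list few SNORD genes and with the 5 that list many, all chosen after seeing the data, and calls of receptors lost there are stated.

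Read counts were not used here, since the table holds FPKM only. Steps between its low values gave the relative depth. Relative to Reh library 0, the FPKM value of 1 fragment was 2.59 and 1.71 in the KM-H2 libraries, 1.62 and 0.430 in L1236, and 1.43 and 0.729 in L428. It was 0.998 and 1.14 in Namalwa, 1.02 in Reh library 1, and 0.635 and 0.600 in PMA-treated Reh. Low levels were thus read least finely in KM-H2. A value of 0 in such a table can stand for a failed estimate, so it is given only as listed at 0.

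The markers of each line were checked. TNFRSF8 (CD30), the surface marker of HRS cells, was at 28.3 and 20.1 FPKM in KM-H2, 30.6 and 19.1 in L1236 and 63.7 and 38.7 in L428, and did not exceed 0.505 in the other libraries. Of 6 HRS markers with TNFRSF8 among them, 5 or 6 reached 1 FPKM in each HRS library. In Namalwa 0 did, in Reh 2 and 1, and after PMA 3. FSCN1 was at 15.3 and 14.4 FPKM in Reh. CSF1R differed from untreated Reh by a log2 difference of 0.12 in L1236 and of 3.33 after PMA. Of 7 B lineage markers, 7 reached 1 FPKM in both Namalwa libraries and 6 in each Reh library, against 3 in KM-H2, 1 in L1236 and 1 in L428. Of 4 T cell markers, 3 were used here, and their summed level was 17.0 and 25.3 FPKM in KM-H2 and at most 0.123 in the other libraries. CD3D led this list in KM-H2 with 13.5 and 22.5 FPKM, and CD3G also reached 1 FPKM in both libraries, while CD3E was at 0.197 and at 0. Of 4 myeloid markers, only CD14 reached 1 FPKM in KM-H2, with 5.79 and 4.56, and LYZ stayed below it. The part of these transcripts in the KM-H2 results was not tested. MPO, another of the myeloid markers, was at 24.8 and 32.0 FPKM in Reh, 6.44 and 5.00 after PMA, and at 0 and 5.35 in L428. The 3 erythroid markers were listed at 0 in all 12 libraries, and the 3 fibroblast markers summed to at most 3.67 FPKM, reached in KM-H2 library 1. EGR1, an immediate response gene, was at 0.138 and 0.0349 FPKM in Reh and at 62.1 and 76.2 after PMA.

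CCR7 separated the HRS lines from all other libraries. The gene lies at chr17:38710021-38721724 on the minus strand of hg19, with no other annotated gene over it. Its level was 257 and 303 FPKM in L1236, 128 and 132 in L428, and 29.5 and 22.8 in KM-H2. In Namalwa it was 0.506 and 0.749 FPKM, in Reh 1.17 and 1.59, and in PMA-treated Reh 0.726 and 1.10. Fewer cells that express a gene and less RNA per cell cannot be told apart in such libraries. No HRS library overlapped a control library, and the lowest HRS value came from KM-H2. The order was L1236, L428, KM-H2, Reh, PMA-treated Reh and Namalwa, and the steps from Reh to PMA-treated Reh and from there to Namalwa were within the spread (adjusted p = 0.290 and 0.424).

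CCR7 was called higher in all 6 pairs of an HRS line with a control line, a rule that 2.68% of the genes tested met. Here and below, a gene is called at a limma p-value below 0.05, after Benjamini-Hochberg adjustment over all genes tested, with a difference of at least 1 on the log2(FPKM + 1) scale, which understates changes of low genes. The log2 differences ran from 3.51 (KM-H2 against Reh, SE 0.21, adjusted p = 1.61e-06) to 7.43 (L1236 against Namalwa, adjusted p = 3.09e-08). With only the 7 libraries that list few SNORD genes, the smallest was 3.69 and the largest 7.31. The HRS lines also differed from each other, with KM-H2 below L1236 by a log2 difference of -3.38 and below L428 by -2.28. The latter was not called in the 5 libraries that list many SNORD genes (-2.48). L1236 was above L428 by 1.10 (adjusted p = 0.00367), a call that was lost without L1236 library 1 (0.98), in the 7 libraries that list few SNORD genes (1.00) and in the 5 that list many (1.20).

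CXCR4 was highest in the control lines and in L428, and lowest after PMA. It lies at chr2:136871919-136876747 on the minus strand of hg19. A promoter of it is shown because CXCR4 is the receptor that differed between treated and untreated Reh. RefSeq promoters (250 bases before to 50 after a start site, GRCh38.p14) were matched for 6 of the 8 genes, with 10 windows in all, and CCR7 and CCR10 had no entry. The first of 3 windows of CXCR4, at chr2:136118100-136118399 on the minus strand, reads 5′ to 3′ as follows, with capitals marking GC boxes (GGGCGG, either strand) and the 2 overlapping copies, on opposite strands, of an NRF1 core (GCATGCGC).
CXCR4: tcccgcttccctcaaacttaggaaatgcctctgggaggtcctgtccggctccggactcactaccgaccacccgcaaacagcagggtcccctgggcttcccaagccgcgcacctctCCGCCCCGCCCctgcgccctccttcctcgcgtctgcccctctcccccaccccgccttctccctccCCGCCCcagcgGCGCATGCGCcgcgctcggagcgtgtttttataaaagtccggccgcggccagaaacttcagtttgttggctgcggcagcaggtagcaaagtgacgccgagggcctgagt

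A GC box was found in 45% of the 35116 promoters of the same length and the NRF1 core in 3.05%, on either strand. No AP-1 (TGANTCA, 7.71% of promoters), kappaB (GGGNNTTCC, 6.58%) or EGR (GCGTGGGCG, 0.795%) match is in this window. A match describes letters, not a bound site.

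CXCR4 levels were 223 and 172 FPKM in Namalwa, 134 and 135 in Reh, and 6.90 and 12.5 in PMA-treated Reh. Among the HRS lines they were 105 and 172 FPKM in L428, 53.5 and 74.7 in L1236, and 46.0 and 41.7 in KM-H2. Both PMA-treated libraries were below every other library. The order was Namalwa, L428, Reh, L1236, KM-H2 and PMA-treated Reh. Namalwa and L428 (adjusted p = 0.215), L428 and Reh (adjusted p = 1) and L1236 and KM-H2 (adjusted p = 0.251) did not differ beyond the spread as neighbours.

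**Figure D1:**
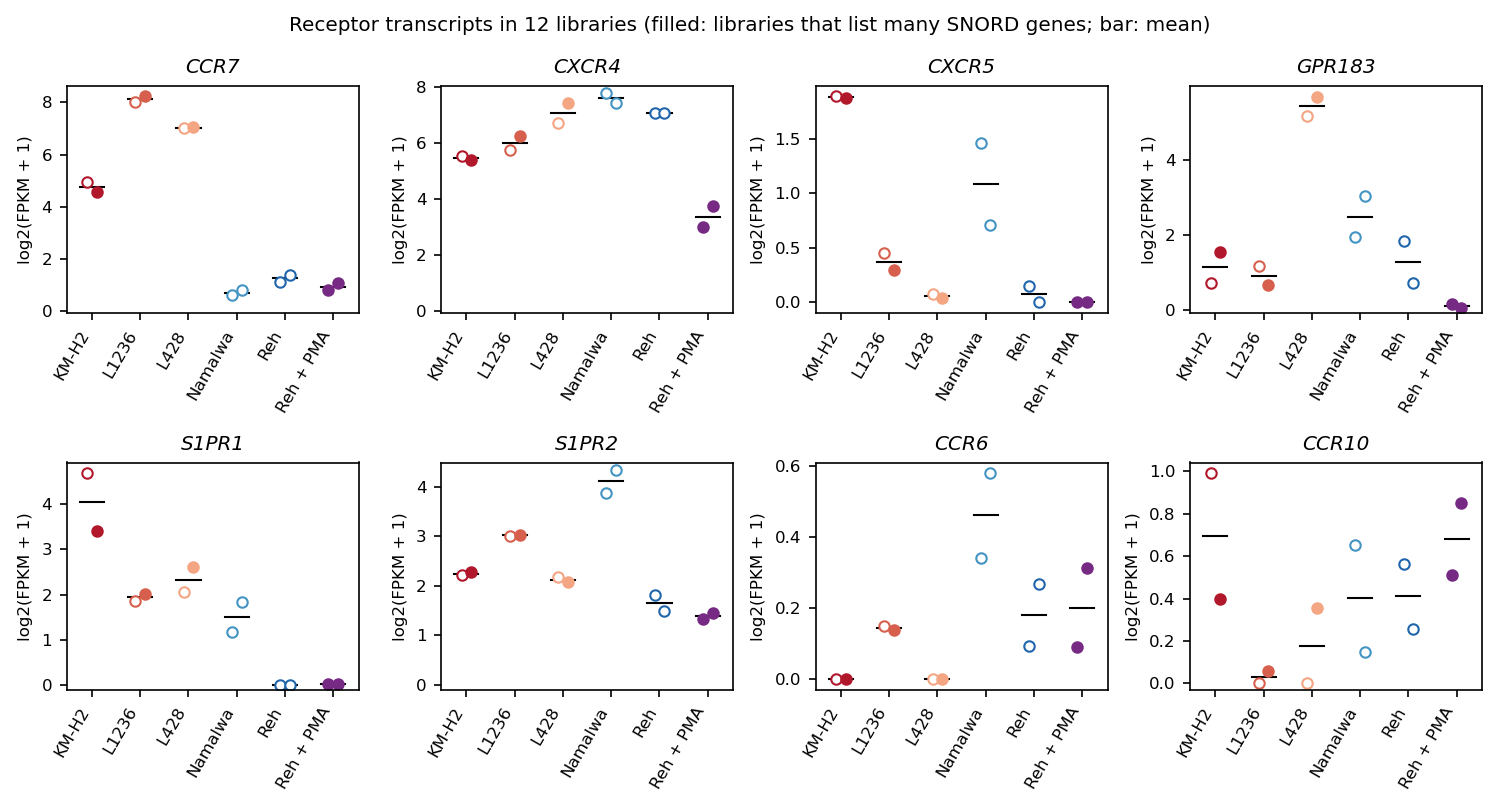
Level of each receptor as log2(FPKM + 1) on the vertical axis in the 2 libraries (points) and their mean (bar) for 6 conditions, with filled points for the 5 libraries that list many SNORD genes. CCR7 is high in the 3 HRS lines, CXCR4 is lowest in PMA-treated Reh, and CCR6 and CCR10 stay below 1 FPKM.

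CXCR4 was called lower in KM-H2 and in L1236 against both control lines. The log2 difference of KM-H2 was -2.14 against Namalwa (adjusted p = 0.000681) and -1.60 against Reh. That of L1236 was -1.62 against Namalwa and -1.08 against Reh (adjusted p = 0.0257). The last call was lost when libraries were scaled to equal FPKM sums, and without L1236 library 0 (log2 difference -0.84), Reh library 0 (-1.08) or Reh library 1 (-1.07). L428 differed from neither control line beyond the spread, with -0.55 against Namalwa and an interval of -0.74 to 0.73 against Reh.

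CXCR5, the follicle receptor, was low throughout. It lies at chr11:118754601-118768496 on the plus strand of hg19, where BCL9L and a long non-coding RNA gene overlap it on the other strand. The library kit keeps strand, but the strand setting of the counting was not given in the sources used here. CXCR5 was at 2.71 and 2.67 FPKM in KM-H2, 1.76 and 0.641 in Namalwa, 0.366 and 0.226 in L1236, and 0.0539 and 0.0274 in L428. In Reh it was at 0.113 and at 0, and in both PMA-treated libraries it was listed at 0. Both KM-H2 libraries were above all others, and the Namalwa libraries were far apart.

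CXCR5 reached 1 FPKM only in both KM-H2 libraries and Namalwa library 0. It would not have been tested without KM-H2, so its calls for KM-H2 only describe the levels above. CXCR5 was called higher in KM-H2 than in Reh (log2 difference 1.81), L1236 (1.51) and L428 (1.83). With the 7 libraries that list few SNORD genes, none of these 3 calls was kept, at log2 differences of 1.81, 1.44 and 1.82. It was called lower in L428 than in Namalwa (-1.03), and this call was lost without Namalwa library 0 (-0.66), in the 7 libraries that list few SNORD genes (-1.01), with only the 4 libraries compared and, below the minimum difference, with the SNORD split as a term. KM-H2 and Namalwa, the top neighbours in its order, differed by 0.80, below the minimum for a call, and by 1.17 and called without Namalwa library 0.

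CCR6, which guides cells towards CCL20 in mucosal tissue, and CCR10, which binds CCL27 and CCL28 and marks antibody-secreting cells, were near the floor. CCR6 lies at chr6:167525295-167552629 on the plus strand and CCR10 at chr17:40830907-40835935 on the minus strand of hg19, and 3 annotated genes overlap each of them. CCR6 peaked at 0.495 FPKM in a Namalwa library and was listed at 0 in 4 libraries, both of KM-H2 and both of L428. CCR10 peaked at 0.988 FPKM in KM-H2 library 0 and was listed at 0 in 2 libraries. Both Namalwa libraries were above all others for CCR6, while the CCR10 libraries overlapped between neighbours in its order. At these levels no log2 difference could reach the minimum for a call. Without the filter, CCR6 was lower in L1236 than in Namalwa at adjusted p = 0.0445. The adjusted p-values were 0.00861 for KM-H2 and 0.00876 for L428 against Namalwa. Both lines were listed at 0, which can stand for a failed estimate, so no lower level is read there.

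GPR183, the oxysterol receptor, was high in L428. It lies at chr13:99946793-99959653 on the minus strand of hg19, inside UBAC2, which is on the other strand. Its promoter is shown as a contrast to that of CXCR4, since 36.7% of its bases are G or C, against 66.7% in the CXCR4 window and a median of 58.7% over all promoters, and since none of the 8 motifs searched is in it. It lies at chr13:99307350-99307649 on the minus strand of GRCh38.p14, and no capitals appear because no motif was found.
GPR183: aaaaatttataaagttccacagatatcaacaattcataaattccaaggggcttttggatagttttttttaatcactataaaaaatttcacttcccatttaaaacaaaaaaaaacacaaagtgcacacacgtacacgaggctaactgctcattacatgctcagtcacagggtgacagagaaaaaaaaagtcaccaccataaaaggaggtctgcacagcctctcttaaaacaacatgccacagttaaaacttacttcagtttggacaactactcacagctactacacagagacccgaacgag

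The motifs searched, besides those above, were CRE (TGACGTCA, in 1.85% of promoters), the octamer (ATGCAAAT, 1.77%) and an ETS core (CCGGAAGT, 4.14%). GPR183 was at 35.3 and 51.5 FPKM in L428. Elsewhere it was at 2.84 and 7.19 FPKM in Namalwa, 2.59 and 0.646 in Reh, 0.656 and 1.92 in KM-H2, 1.23 and 0.593 in L1236, and 0.121 and 0.0380 in PMA-treated Reh. L428 did not overlap any other condition, while Reh, KM-H2 and L1236 overlapped each other. Below L428, no neighbours in the order differed beyond the spread (adjusted p from 0.104 for Namalwa and Reh to 0.851 for Reh and KM-H2).

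In L428, GPR183 was called higher than in Namalwa (log2 difference 2.96, SE 0.48, adjusted p = 0.00101) and Reh (4.17). It was also called higher than in KM-H2 and L1236, which were lower by log2 differences of -4.31 and -4.53. With the 7 libraries that list few SNORD genes, the differences to Namalwa, KM-H2 and L1236 were not called, at 2.70, -4.46 and -4.03. KM-H2 and L1236 were called lower than Namalwa, at -1.35 (adjusted p = 0.0488) and -1.57 (adjusted p = 0.0272). The first of these calls was lost in 9 of 12 fits without 1 library, including those without a library of another line, and fell to -0.81 without Namalwa library 1. The second was lost in 3 of 12, at -1.82 and -1.33 without L1236 library 0 and library 1 and at -1.03 without Namalwa library 1. Neither was called in the 7 libraries that list few SNORD genes (-1.76 and -1.33), with only the 4 libraries compared or without the filter on low values, and the first also not with a pseudocount of 0.1 or 0.5, a filter at 0.3 FPKM or the column suffix as a block.

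S1PR1 was highest in KM-H2 and listed at 0 in Reh. It lies at chr1:101702421-101709269 on the plus strand of hg19, with no overlapping gene. Its level was 24.6 and 9.60 FPKM in KM-H2, 3.14 and 5.09 in L428, 2.64 and 3.06 in L1236, and 1.27 and 2.57 in Namalwa. It was listed at 0 in both Reh libraries and was at 0.0225 and 0.0212 FPKM after PMA. The KM-H2 libraries were above all others, though they differed from each other by more than 2-fold. L428, L1236 and Namalwa followed in this order, and the steps from L428 to L1236 and from L1236 to Namalwa were within the spread (adjusted p = 0.534 and 0.431).

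S1PR1 was called higher in all 3 HRS lines than in Reh, against which no fold is given. Against Namalwa it was called higher in KM-H2 (log2 difference 2.53, adjusted p = 0.000779), with 0.43 in L1236 and 0.82 in L428. KM-H2 was also called above L1236 (2.10) and L428 (1.71). With only the 4 libraries compared, none of these 3 calls of KM-H2, against Namalwa, L1236 and L428, was made. The KM-H2 duplicates differed by -1.27 between the library that lists many SNORD genes and the other, and the difference to L428 was 0.80 and not called in the 5 libraries that list many, and 2.63 in the 7 that list few. It was 1.44 and not called without L428 library 0.

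S1PR2 was highest in Namalwa. It lies at chr19:10332109-10342007 on the minus strand of hg19, where DNMT1 overlaps it on the same strand and MIR4322 on the other. Strand cannot tell DNMT1 fragments in the overlap from those of S1PR2, and their part in its levels was not tested. The promoter of S1PR2 is shown because it holds a CRE, the motif of cyclic AMP response elements, at its first base. The window is at chr19:10231282-10231581 on the minus strand of GRCh38.p14, with the CRE and GC boxes in capitals.
S1PR2: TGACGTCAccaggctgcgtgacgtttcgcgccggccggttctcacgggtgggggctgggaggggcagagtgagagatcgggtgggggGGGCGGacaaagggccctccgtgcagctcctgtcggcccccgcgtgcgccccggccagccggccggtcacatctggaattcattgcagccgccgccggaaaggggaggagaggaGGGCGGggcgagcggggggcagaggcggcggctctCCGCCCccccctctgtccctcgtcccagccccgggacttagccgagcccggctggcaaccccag

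S1PR2 was at 13.7 and 19.2 FPKM in Namalwa, 7.03 and 7.14 in L1236, 3.64 and 3.83 in KM-H2, and 3.51 and 3.20 in L428. In Reh it was at 2.51 and 1.82 FPKM, and after PMA at 1.52 and 1.72. No condition overlapped its neighbour in this order. Even so, the differences of KM-H2 to L428 (adjusted p = 0.711), L428 to Reh (0.110) and Reh to PMA-treated Reh (0.391) were within the spread. S1PR2 was called lower than in Namalwa in KM-H2 (log2 difference -1.86), L1236 (-1.09) and L428 (-1.99), and higher in L1236 than in Reh (1.36). The L1236 calls were lost with the 7 libraries that list few SNORD genes (-1.10 and 1.35), and the one against Namalwa also without Namalwa library 1 (-0.86).

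The comparison of HRS with control lines asks which receptors set the cHL lines apart from B-cell lines. Against Namalwa, 5 of the 6 receptors tested were called in KM-H2 (30.4% of all genes tested), 4 in L1236 (29.5%) and 4 in L428 (31.3%). Against Reh, 4 were called in KM-H2 (32.7%), 4 in L1236 (30.7%) and 3 in L428 (30.3%). CCR7 was the receptor called in the same direction throughout, and none was called lower in all 6 pairs, a rule met by 2.15% of genes. The other 5 receptors tested changed direction or call with the pair compared.

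**Figure D2:**
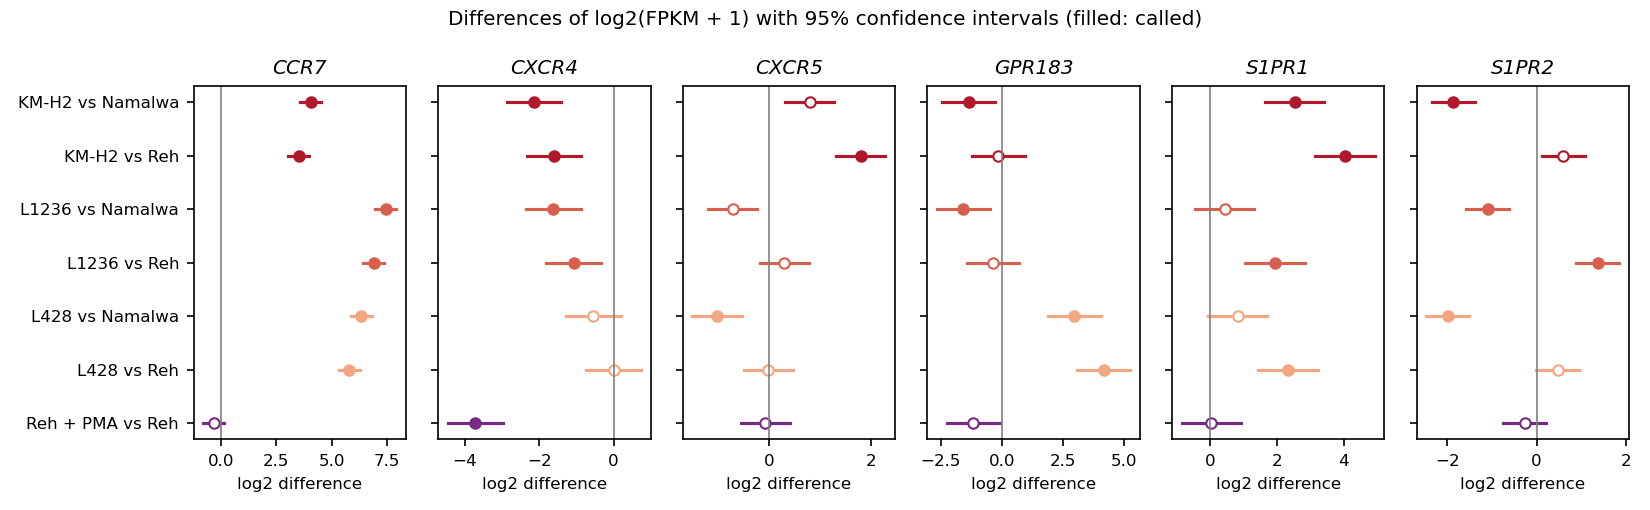
Difference of log2(FPKM + 1) on the horizontal axis with its 95% confidence interval (line) for 6 receptors in 7 comparisons, with filled points where the receptor was called. CCR7 lies to the right of 0 in all 6 pairs of an HRS line with a control line, and CXCR4 lies at -3.71 for PMA.

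With the cell line as the unit, 3 HRS lines against 2 control lines, limma called 0 of the 6 receptors, beside 0.545% of all genes tested. At an unadjusted p below 0.05 there was 1, CCR7, as against 13.5% of all genes. Its log2 difference between line means was 5.67 (95% confidence interval 3.19 to 8.15, adjusted p = 0.109), with adjusted p from 1.93e-08 to 0.402 over the alternatives. The smallest of these took libraries as units, and CCR7, CXCR4 and S1PR1 were then called. The line-level difference was 2.02 for S1PR1, which was listed at 0 in Reh. It ran from 1.26 to 2.77 without 1 line and was 3.71 with a pseudocount of 0.1. For CXCR4 the line-level difference was -1.16, and 0.69 with PMA-treated in place of untreated Reh.

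The HRS lines were not alike in their receptors. Between KM-H2 and L428, 5 of 6 were called (26.6% of all genes), between KM-H2 and L1236 3 (26.6%), and between L1236 and L428 3 (21.9%). L428 stood out by GPR183, KM-H2 by CXCR5 and S1PR1, and L1236 by CCR7. CXCR4 was lower in KM-H2 than in L428 by a log2 difference of -1.59 and in L1236 by -1.07. Neither was called in the 7 libraries that list few SNORD genes (-1.17 and -0.96), in the 5 that list many (-2.02 and -1.19) or with only the 4 libraries compared. The L1236 call was lost with equal FPKM sums and in 5 of 12 fits without 1 library, at -0.84 without L1236 library 0, -1.31 without L1236 library 1, -0.72 without L428 library 1 and -1.07 without either Reh library.

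The control lines also differed. Namalwa was called above Reh for 3 of 6 receptors, beside 19% of all genes, namely S1PR2 (log2 difference 2.45), CXCR5 (1.01) and S1PR1, listed at 0 in Reh. The CXCR5 call was lost without Namalwa library 0 (0.64) or Reh library 1 (0.93), and in the 7 libraries that list few SNORD genes and with only the 4 libraries compared (adjusted p = 0.125 and 0.116, in a range of 0.000495 to 0.125 over the alternatives). The S1PR1 call was lost without Namalwa library 1, Reh library 0 or Reh library 1 and with equal FPKM sums. Its difference on the log2(FPKM + 1) scale, which is no fold against a level listed at 0, was 1.18 without Namalwa library 1. It stayed at 1.51 without either Reh library and with equal FPKM sums.

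PMA-treated Reh was compared with untreated Reh to ask which receptors differ with an activator of protein kinase C. Of the 6 receptors tested, 1 was called, CXCR4, beside 22.2% of all genes. CXCR4 was 13.1-fold lower on the log2(FPKM + 1) scale, at a log2 difference of -3.71 (95% confidence interval -4.45 to -2.98, adjusted p = 7.04e-05). It was called in 23 of 23 alternatives, with differences from -4.10 to -3.33 and adjusted p up to 0.0151. With the SNORD split as a term, estimated from the HRS lines, the difference was -4.06 (adjusted p = 0.000368). Between the duplicates of KM-H2, L1236 and L428, the library that lists many SNORD genes differed in CXCR4 by -0.14, 0.47 and 0.71.

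The other receptors tested in Reh had smaller differences on the log2(FPKM + 1) scale. GPR183, at a mean of 1.62 FPKM before and 0.0793 after, had a log2 difference of -1.17 after PMA (adjusted p = 0.0922), which became -3.02 and was called (adjusted p = 0.0162) with a pseudocount of 0.1 in place of 1, in a range of 0.0162 to 0.488 over the alternatives. CCR7 had -0.32 and S1PR2 -0.27, and both turned to 0.02 under quantile normalization, where neither was called. CXCR5 and S1PR1 were at or near 0 on both sides. The summed level of 6 B-cell precursor markers was 1342 and 1220 FPKM before and 127 and 134 after PMA. Among them, DNTT was not called (log2 difference -0.76). That of 7 B lineage markers went the other way, from 940 and 1016 FPKM to 1114 and 1357. The part of such shifts in the CXCR4 result was not tested.

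Against the other lines, PMA-treated Reh was called lower for 5 of 6 receptors than Namalwa (30.7% of all genes), and for 4 of 6 than KM-H2 (39.9%), L1236 (35.5%) and L428 (37%). CXCR4 was among them in each case, with log2 differences of -4.26, -2.11, -2.64 and -3.71. In the 5 libraries that list many SNORD genes, its differences to KM-H2, L1236 and L428 were -2.05, -2.87 and -4.06 and were not called. The S1PR1 difference to Namalwa (-1.48) was lost without Namalwa library 1 (-1.15) or either PMA-treated library (-1.48 in both), and with the SNORD split as a term (-1.29). That of CXCR5, listed at 0 after PMA, was lost without Namalwa library 0 and with only the 4 libraries compared.

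The share of each receptor in the summed FPKM of the 8 genes shows how the repertoire differed. CXCR4 made up 91.4% and 84.8% in Namalwa and 95.1% and 96.8% in Reh. In L1236, CCR7 made up 79.9% and 77.9%. L428 was divided between CCR7 (46.6% and 36.2%), CXCR4 (38.1% and 47.3%) and GPR183 (12.8% and 14.2%). KM-H2 held CXCR4 (42.5% and 50.3%), CCR7 (27.3% and 27.6%) and S1PR1 (22.8% and 11.6%). In PMA-treated Reh the sum was 9.77 and 16.4 FPKM, as against 141 and 139.7 in Reh, and CXCR4 was still its largest share.

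Among 13 other conventional chemokine receptors, 2 were tested, CCR4 and CXCR3. CCR4, the receptor of CCL17 and CCL22, was at 165 and 155 FPKM in L428, 16.6 and 26.5 in L1236, 10.2 and 5.21 in KM-H2 and at most 0.0686 elsewhere. It was called higher in all 6 pairs. Only HRS libraries reached the minimum level, so these calls only describe its levels. CCL17 itself reached 705 and 454 FPKM in L428. CXCR3 was at 3.67 and 2.03 FPKM in L428 and was called higher in 4 of 6 pairs. It too passed the minimum level only through HRS libraries, so its calls only describe its levels. Of 5 atypical receptors, which take up chemokines without G-protein signalling, 2 were tested. Neither list held a gene called with PMA (0 of 2 and 0 of 2), beside 22.2% of all genes, so these small counts say little. ACKR3, which binds CXCL12 as CXCR4 does, was at 9.60 and 7.44 FPKM in KM-H2 and 7.46 and 16.9 in L1236, and at most 0.0772 in L428. Namalwa lay between, with ACKR3 called higher than in Reh (log2 difference 1.46) and lower than in L1236, which was above it by 2.16.

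**Figure D3:**
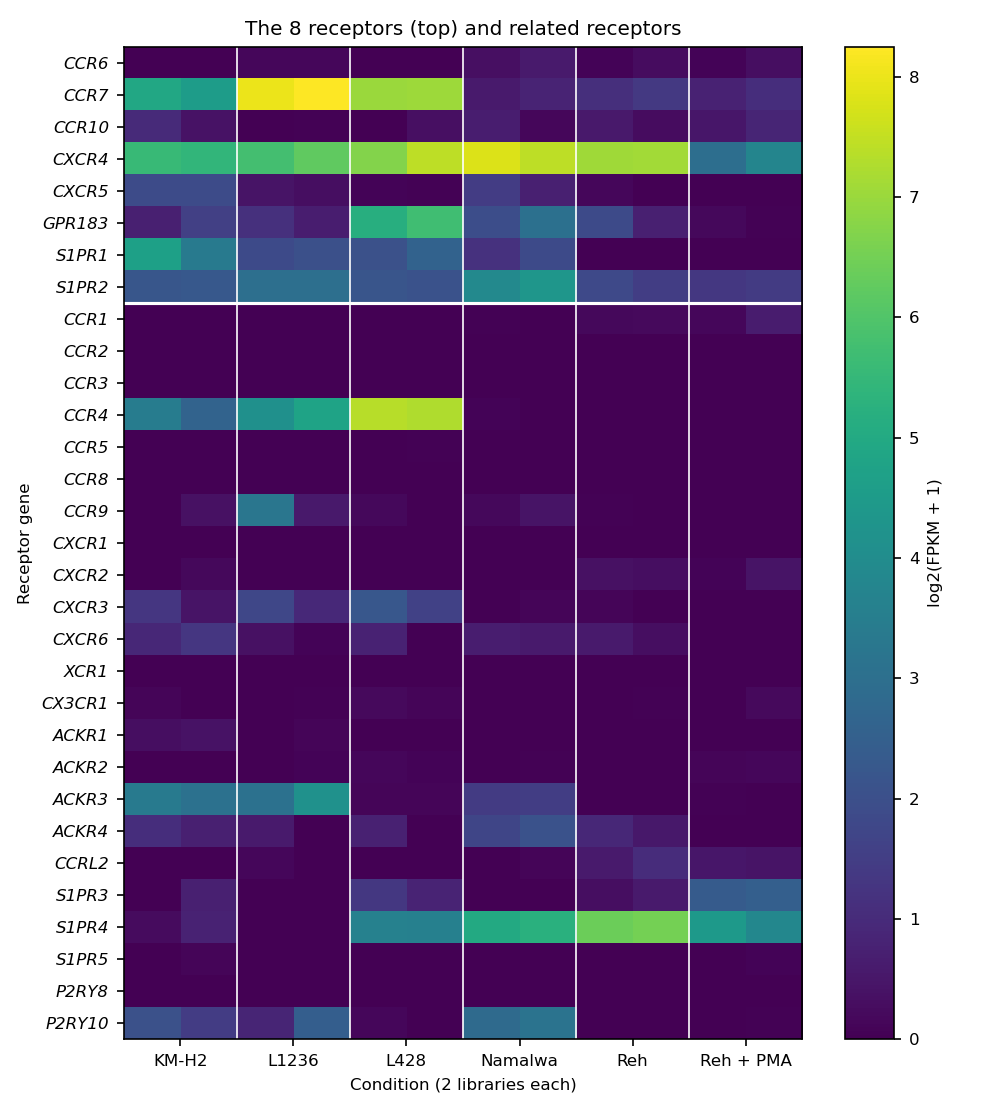
Heat map of log2(FPKM + 1) for the 8 receptors (above the white line) and 23 related receptors (rows) in 12 libraries (columns, 2 for each condition). CCR7 and CCR4 are high in the HRS lines, and S1PR4 is high in Reh and Namalwa.

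Of 5 other lipid and purinergic receptors, 3 were tested. S1PR4, a sphingosine-1-phosphate receptor of lymphoid cells, was at 82.9 and 91.9 FPKM in Reh and 31.5 and 36.6 in Namalwa, and was called lower in all 6 pairs of an HRS line with a control line. After PMA it was at 20.5 and 13.1 FPKM, a log2 difference of -2.34 (adjusted p = 0.000253), while S1PR3 was at 0.238 and 0.513 FPKM before and 4.13 and 4.67 after. P2RY8, named after its values were seen, was listed at 0 in all 12 libraries.

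Of 7 protein ligands of the 8 receptors, 1 was tested, CCL20, the ligand of CCR6, at a mean of 3.28 FPKM in KM-H2 and at 1.95 and 2.78 after PMA, and called higher in KM-H2 than in both control lines. CCL19 and CCL21, the ligands of CCR7, were listed at 0 in all libraries. CXCL12, the ligand of CXCR4, was above 0 in 1 library, KM-H2 library 1, at 0.894 FPKM.

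Of 10 enzymes and transporters of the lipid ligands, 7 were tested, and with PMA 2 were called higher and 0 lower, at a median log2 difference of 0.19 against -0.03 over all genes, of which 22.2% were called. The call of SGPL1 was lost without Reh library 1 or PMA-treated library 0 (log2 differences 1.00 and 0.98). CH25H, which starts the synthesis of the GPR183 ligand, was at 2.32 and 1.22 FPKM after PMA, and was listed at 0 in Reh. Only the PMA-treated libraries took CH25H past the minimum level, so its call, 1 of the 2, only describes these levels. HSD3B7, which degrades that ligand, was at 36.0 and 26.9 FPKM in L428, the line with high GPR183, and at most 6.55 elsewhere. SGPL1, the lyase of sphingosine-1-phosphate, was at 75.5 and 61.6 FPKM in L1236 and was called higher in 5 of 6 pairs. SGPP2, a phosphatase of the same lipid, was at 45.6 and 10.9 FPKM in KM-H2 and at most 1.02 elsewhere.

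Of 15 G-proteins and effectors, all tested, 6 were called higher and 1 lower after PMA, at a median log2 difference of 0.83, beside 22.2% of all genes (1534 higher and 1731 lower of 14679, and 1395 and 1192 with equal FPKM sums). GNAI3, an inhibitory G-protein subunit through which these receptors signal, had a log2 difference of 2.08, GNB2 of 1.36 and PREX1, an activator of RAC, of 2.03. The calls of GNAI1, GNAI2, GNB2 and PLCB2 were each lost in at least 1 of 4 fits without 1 Reh library, treated or not. Where lost, the log2 differences were 0.59 to 1.19 for GNAI1 (1.10 in all libraries) and 0.88 to 1.25 for GNAI2 (1.13). They were 1.13 and 1.27 for GNB2 (1.36) and -0.86 and -1.05 for PLCB2 (-1.18). The calls of GNAI1 and PLCB2 were also lost with the SNORD split as a term (1.09 and -1.13). Of 8 receptor kinases, arrestins and surface regulators, 4 were called higher and 1 lower, beside the same 22.2% of all genes. CD69, which binds S1PR1 and takes it from the surface, went from 2.99 and 2.57 to 61.3 and 64.5 FPKM. ADRBK1 (GRK2), a kinase that desensitises receptors, was at 209 and 220 FPKM before and 30.2 and 36.5 after PMA, whereas GRK5 was at 1.41 and 1.04 before and 17.1 and 23.1 after. KLF2, an activator of S1PR1 transcription, was at 1.24 and 0 before and 2.59 and 1.91 after PMA. Its call was lost without Reh library 1, the one listed at 0 (log2 difference 0.53), without either PMA-treated library and with the SNORD split as a term. That of ARRB2 was lost without PMA-treated library 1 and with the split as a term.

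**Figure D4:**
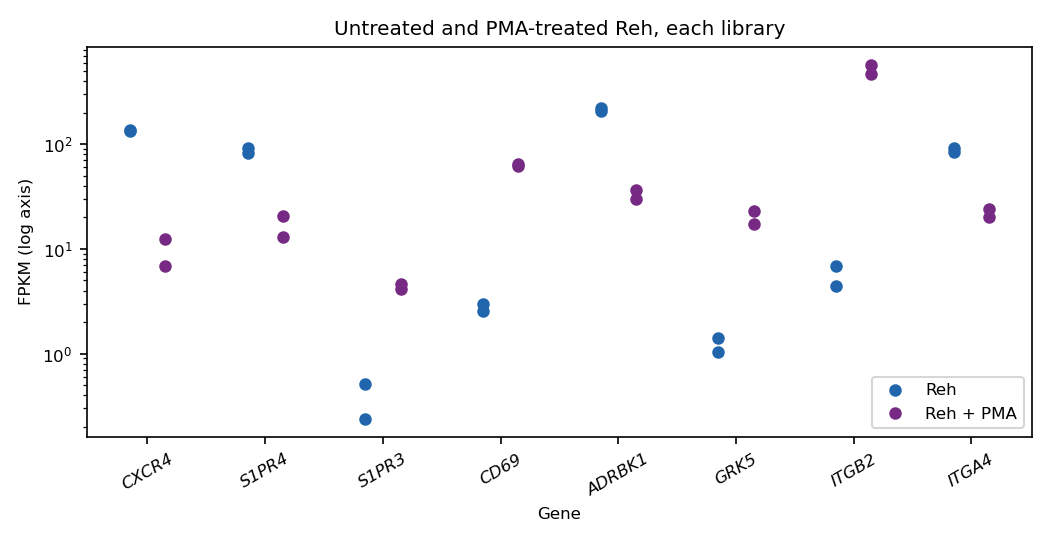
FPKM on a log axis for CXCR4 and 7 genes of the lists in the 2 libraries each of untreated and PMA-treated Reh (points). CXCR4, S1PR4, ADRBK1 and ITGA4 are lower and S1PR3, CD69, GRK5 and ITGB2 higher after PMA, with no overlap between the 2 conditions.

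Of 14 cytoskeletal effectors, 2 were called higher after PMA, RAC2 (log2 difference 1.85) and RAP1A (1.25), and 0 lower, beside 22.2% of all genes. With the SNORD split as a term, RAC1 was called higher (2.51, against 1.21 without it) and DOCK8 lower (-1.20, against -0.91). RASGRP2 and DOCK8, which activate RAP1 and CDC42, were called lower in all 6 pairs of an HRS line with a control line, as were 2.15% of all genes. In contrast, DOCK2, RAC2 and RAP1A were each called higher in 1 of these pairs, and CDC42, RAC1, RHOA and RAP1B were called in none. For the adhesion genes no count is given, and the values of 4 are examples, 3 of them those with the largest differences. ITGB2, the shared chain of the leukocyte integrins, went from 6.85 and 4.46 to 574 and 470 FPKM, and FERMT3, which activates integrins, from 35.4 and 30.8 to 336 and 276. ITGA4, an integrin chain named after its values were seen, went from 85.0 and 92.5 to 20.1 and 23.8 FPKM. ICAM1, a ligand of leukocyte integrins, had a log2 difference of 2.12. CD44 and ICAM1 were called higher in all 6 pairs of an HRS line with a control line, as were 2.68% of all genes. Only HRS libraries took CD44 past the minimum level, so its calls only describe its levels.

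The genes whose log2(FPKM + 1) followed each receptor most closely over the 12 libraries, which share lines and the SNORD split, are given as a description. For CCR7 they were IL13RA1 (Pearson's r = 0.998), GPR15 (0.996) and SPAG1 (0.993), and for CXCR4 ZNF652 (0.958), LRP11 (0.940) and REV1 (0.940). For GPR183 they were RAB23 (0.984), MIIP (0.973) and TOP2A (0.967), and for CXCR5 CCDC85A (0.962), PDE4B (0.961) and TEKT4P2 (0.958). For S1PR1 they were SLC39A11 (0.969), DYNC2H1 (0.962) and STOML1 (0.952), and for S1PR2 TUBB3 (0.968), ITPR2 (0.963) and RIMS2 (0.951).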

How the data were processed

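Total RNA libraries were made in duplicate with a stranded, ribosomal RNA-depleted kit. Per the submitters' processing notes, TopHat2 2.0.11 and Cuffnorm 2.2.1 were used on hg19, and the authors deposited 1 table of FPKM values for 12 libraries. Its column names did not match the replicate numbers of the labels, so libraries were assigned to conditions only. From this table, log2(FPKM + 1) was fitted with limma 3.58.1 (R 4.3.3) with a mean-variance trend, two-sided, for 15 pairs of conditions and for line means, over 14679 genes with FPKM of at least 1 in at least 2 libraries. No counts were used, so depth is known only relatively. Positions came from GENCODE v44lift37. Named genes were the 8 receptors, up to 3 called genes of each list by size of the difference, genes tied to a receptor by role, and the 3 most alike by correlation. The members and lists were chosen with earlier results of these data known. Alternatives were pseudocounts of 0.1 and 0.5, filters, scalings, no trend, a call by adjusted p alone, libraries left out and, chosen after seeing the data, the SNORD split.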

Additional observations from a re-analysis of the deposited data

Results flagged for a closer look

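The HRS lines were each compared with the same control lines, and the contrast between 2 HRS lines tests whether their differences from those controls differ. This test was passed in 11 of 18 cases. Of all genes, 26.6% passed it for KM-H2 and L1236, 26.6% for KM-H2 and L428, and 21.9% for L1236 and L428. The calls of CCR7 and CXCR4 between L1236 and L428 were lost in some alternatives, and such losses are stated above with each receptor. For CCR7, KM-H2 differed from L1236 by a log2 difference of -3.38 and from L428 by -2.28, and L1236 from L428 by 1.10. For CXCR4, the difference from L428 was -1.59 in KM-H2 and -1.07 in L1236. For CXCR5, which passed the minimum level only with KM-H2, that line differed from L1236 by 1.51 and from L428 by 1.83. For GPR183, the difference from L428 was -4.31 in KM-H2 and -4.53 in L1236. For S1PR1, KM-H2 differed from L1236 by 2.10 and from L428 by 1.71. The causes of these differences were not tested.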

How the results depend on the processing

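No label pairs libraries between conditions, and the suffixes 0 and 1 of the columns do not match the replicate numbers 1 and 2 of the labels. With the suffix in place of the number as a replicate block, added after seeing the data, 3456 genes were called with PMA, against 3265 without the block, and the counts of the other pairs moved less than 1.5-fold. Of the calls of receptors, 1 changed, GPR183 in KM-H2 against Namalwa (adjusted p = 0.0570, in a range of 0.0183 to 0.302 over the alternatives). Over 14679 genes, the differences between duplicates (suffix 1 minus 0) had Pearson's r of 0.427 for KM-H2 and L1236, 0.301 for KM-H2 and L428, 0.681 for L1236 and L428 and 0.357 for Namalwa and Reh, and of -0.0450 to 0.191 for the other 11 pairs of conditions. In the HRS lines the suffix and the SNORD split are the same. In PMA-treated Reh, 1 receptor was called in all alternatives but the pseudocount of 0.1, which called 2. With line means, 0 were called in all alternatives but the one with libraries as units, which called 3. Of 11 calls between HRS lines, 7 were made with only the 4 libraries compared, 4 with the 7 libraries that list few SNORD genes and 6 with the 5 that list many. Namalwa against Reh gave 1 to 3 calls without 1 library, the lowest without Reh library 1. Of all genes, 3265 were called with PMA, and 2082 to 3363 without 1 library, with 2082 without PMA-treated library 0 and 2168 without Reh library 0. With line means 80 were called, against 0 to 183 without 1 line (183 without Namalwa and 0 without each other line), 3614 with libraries as units, 11 without the filter, 16 with PMA-treated Reh in place of Reh and 5 in the 7 libraries. In the 5 libraries, 2060 genes (3911 in all libraries) were called for KM-H2 against L1236, 2021 (3904) for KM-H2 against L428, 1029 (3216) for L1236 against L428, and 3535 (5851), 2539 (5216) and 2626 (5429) for PMA-treated Reh against KM-H2, L1236 and L428. With only the 4 libraries compared, 1972 were called for KM-H2 against L428 and 2052 for L1236 against L428. Fewer libraries entered these fits. A condition left with 1 library is assumed to vary like the others.

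Of the log2 differences of single receptors under the alternatives, with the order by the higher library counted among them, 2121 kept their sign and side of the threshold, 77 lost a call, 27 gained one and 19, none of them called, changed sign. Under quantile normalization the last were CCR7 (0.0199) and S1PR2 (0.0163) with PMA, CXCR4 in L428 against Reh (0.0411) and CXCR5 in line means (-0.00813). CXCR4 in line means was 0.69 with PMA-treated Reh in place of Reh. CXCR5 in L428 against Reh was 0.0149 with the SNORD split as a term, and GPR183 in KM-H2 against L1236 was -0.43 in the 7 libraries. Without 1 library, CXCR4 in L428 against Reh ran from -0.36 to 0.35, CXCR5 in L428 against Reh from -0.0970 to 0.0573, and GPR183 from -0.19 to 0.63 in KM-H2 against L1236, -0.71 to 0.42 in KM-H2 against Reh and -0.93 to 0.20 in L1236 against Reh. Without 1 line, the line-mean difference ran from -0.37 to 0.69 for CXCR5, -0.86 to 1.41 for GPR183 and -1.65 to 0.81 for S1PR2. The cause was not tested.

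With equal FPKM sums, 9 mean levels moved by more than 1 SD: CCR6 in L1236 (0.115), CCR7 in L428 (111), CXCR4 in Reh (139.7), CXCR5 in KM-H2 (2.83), S1PR1 in PMA-treated Reh (0.0240) and S1PR2 in KM-H2 (3.91), L1236 (7.71), L428 (2.90) and PMA-treated Reh (1.78). This scaling moved the median of all genes by 0.19 in KM-H2 against L428, 0.21 in L1236 against L428, -0.11 in L428 against Namalwa, -0.19 in L428 against Reh and 0.19 in PMA-treated Reh against L428. The share of higher among called genes then went from 51.3% to 63.2%, 49.7% to 67.0%, 56.3% to 46.3%, 51.3% to 40.4% and 47.4% to 61.1%. With PMA the median moved by 0.0315 and this share from 47.0% to 53.9%. By the higher library all 8 receptors kept their order of conditions, and by the lower library 3 did.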
